A study of Homo sapiens with 24 samples.

Results

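A set of 27 integrin genes, counting the integrin-like ITGBL1, and 12 laminin genes was followed through 24 RNA-seq libraries of the human liposarcoma cell line SW872. They were all protein-coding GENCODE genes whose symbol is ITGA or ITGB followed by 1 or 2 characters, or LAMA, LAMB or LAMC followed by a digit. The rule found 39 genes among the 60279 that were counted. Of these, 38 averaged no fewer than 5 counts a library and were tested, among 19997 genes tested in all. The untested gene was ITGB6, which held 0 to 10 counts per library. The cells stably carried an empty retroviral vector (EV), the fusion TAZ-CAMTA1 or YAP-TFE3, the hyperactive coactivators TAZ4SA or YAP5SA, or full-length CAMTA1 or TFE3. In TAZ4SA and YAP5SA, serines that the LATS kinases of the Hippo pathway phosphorylate are replaced by alanines. CAMTA1 cells and a second empty vector group (EVsub) were collected below confluence and all other cells 48 h after it, so CAMTA1 was set against EVsub and the other proteins against EV. Each of the 8 groups held 3 libraries, made per the study's methods from lines transduced in triplicate. These lines are drug-selected pools of cells that also keep their own YAP, TAZ, CAMTA1 and TFE3.

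Integrins are cell-surface receptors, each built from an alpha and a beta chain, that tie the extracellular matrix to the actin cytoskeleton. The alpha chain largely sets the ligand, so that separate groups of receptors bind laminins, collagens or proteins with an RGD motif such as fibronectin and vitronectin, and a further group is typical of leukocytes. Laminins are secreted trimers of an alpha, a beta and a gamma chain and form the sheet on which basement membranes are assembled. YAP and TAZ bind no DNA themselves and act mainly through TEAD factors, and adhesion through integrins is known to feed into their activity. TFE3 is a MiT family factor that binds E-boxes, and CAMTA1 is a calmodulin-binding transcription activator.

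The libraries held 19700277 to 35287476 counts, and at least 26912 genes differed between any pair of them. CAMTA1 was at 144 ± 7.14 CPM in TAZ-CAMTA1 and 123 ± 8.08 in CAMTA1 against 21.4 ± 2.04 in EV, where CPM is counts per 1000000 of the scaled library size and errors are SD over 3 libraries. The CAMTA1 libraries, collected below confluence, also differ from EV in cell density. TFE3 was at 336 ± 19.2 CPM in TFE3 and 283 ± 49.6 in YAP-TFE3 against 119 ± 10.1 in EV. YAP1 was at 253 ± 4.98 CPM in YAP5SA against 128 ± 12.4 in EV. WWTR1, which encodes TAZ, went against 1 label, since it was lower in the libraries labelled TAZ4SA than in EV (mean 134 ± 0.538 against 204 ± 20.3 CPM), with a log2 fold change of -0.60 ± 0.079 (SE) and an adjusted p of 9.77e-07 by edgeR. Whether reads of the construct were counted under WWTR1 was not tested, and the protein, which the study probed by Western blot for its tag, was not analysed here. Those libraries are called by their label throughout, and each direction drawn from them rests on it. The mesenchymal gene VIM was at 804 ± 57.5 CPM in EV and the fat cell regulator PPARG at 46.8 ± 4.07 CPM, while the fat cell hormones ADIPOQ and LEP held 0 and 0 to 2 counts per library. The 5 mesenchymal markers summed to 1054 to 1189 CPM in EV and 761 to 820.1 in YAP-TFE3, and the 6 fat cell markers to 43.8 to 51.9 CPM in EV, 63.1 to 102 in YAP-TFE3 and 27.7 to 31.8 in the libraries labelled TAZ4SA. Their part in the results that follow was not tested.

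The promoters of 4 members are shown because their genes moved in different ways in the results that follow. ITGA10 was lower than EV in all 4 groups with a fusion or a hyperactive coactivator, ITGA5 had its highest level in YAP-TFE3, ITGA1 moved in opposite directions in YAP-TFE3 and in the libraries labelled TAZ4SA, and ITGBL1 had the largest rise in the latter group among the members with a RefSeq promoter entry. Each window runs from 250 bases before to 50 bases after a RefSeq start site on GRCh38.p14, written 5′ to 3′ on the strand of the gene, with capitals for matches to the motifs searched. The windows are chr1:145910001-145910300, minus strand, for ITGA10, chr12:54419217-54419516, minus strand, for ITGA5, chr5:52787666-52787965, plus strand, for ITGA1, and chr13:101452425-101452724, plus strand, for ITGBL1.
ITGA10: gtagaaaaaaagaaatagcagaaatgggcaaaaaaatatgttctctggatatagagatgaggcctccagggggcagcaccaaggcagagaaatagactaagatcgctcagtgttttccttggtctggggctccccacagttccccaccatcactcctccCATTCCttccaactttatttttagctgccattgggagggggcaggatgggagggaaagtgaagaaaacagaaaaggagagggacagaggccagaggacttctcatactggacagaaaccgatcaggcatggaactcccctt
ITGA5: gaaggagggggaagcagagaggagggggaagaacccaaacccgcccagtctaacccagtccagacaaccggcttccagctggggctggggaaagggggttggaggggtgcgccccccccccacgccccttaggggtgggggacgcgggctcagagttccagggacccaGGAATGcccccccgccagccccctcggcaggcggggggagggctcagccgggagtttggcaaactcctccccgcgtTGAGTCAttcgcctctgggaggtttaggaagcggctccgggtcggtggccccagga
ITGA1: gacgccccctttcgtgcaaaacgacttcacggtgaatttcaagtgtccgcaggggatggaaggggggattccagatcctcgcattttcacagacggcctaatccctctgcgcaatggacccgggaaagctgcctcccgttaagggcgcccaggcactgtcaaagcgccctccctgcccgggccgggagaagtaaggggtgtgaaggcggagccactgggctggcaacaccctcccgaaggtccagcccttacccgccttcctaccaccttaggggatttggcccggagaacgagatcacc
ITGBL1: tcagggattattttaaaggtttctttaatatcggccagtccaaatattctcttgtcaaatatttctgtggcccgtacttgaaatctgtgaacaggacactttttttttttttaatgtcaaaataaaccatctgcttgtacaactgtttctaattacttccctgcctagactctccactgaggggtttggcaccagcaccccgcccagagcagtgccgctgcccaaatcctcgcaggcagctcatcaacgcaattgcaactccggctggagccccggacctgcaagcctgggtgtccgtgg
The motifs, searched on both strands, were the TEAD core CATTCC, the E-box CACGTG and the AP-1 site TGANTCA, none of which overlapped another match in these windows. ITGA10 held 1 TEAD core, which began 91 bases before the start site. ITGA5 held 1 TEAD core on the opposite strand, 82 bases before the start site, and 1 AP-1 site, TGAGTCA, 6 bases before it. Neither ITGA1 nor ITGBL1 held any of these letters in its window. RefSeq entries covered 27 of the 39 members in 34 windows. The 12 members without an entry include LAMA1, ITGB3, ITGB2, ITGB4, ITGA3, ITGA7, ITGA9 and ITGAX, so many of the largest changes below have no window here. A TEAD core stood in 4 of the 34 windows (ITGA10, ITGA5, ITGB1 and LAMA2), or 11.76%, against 14.03% of all 35116 promoters. An AP-1 site stood in 3 (ITGA5, LAMA3 and LAMB3), or 8.824%, against 7.709%, and an E-box in 1 (ITGA6), or 2.941%, against 7.256%. The matches are letters in a window and not measured binding.

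YAP-TFE3, YAP5SA and the libraries labelled TAZ4SA each differed from EV at most of the tested members, TAZ-CAMTA1 at 8 and TFE3 at none. In YAP-TFE3, 20 members rose and 7 fell, which is 71.1% of the 38 tested members against 48.2% of all tested genes, of which 25.6 and 22.6% rose and fell. In the libraries labelled TAZ4SA, 15 rose and 12 fell (71.1% against 49.2% of all genes, 25.1 and 24.2% by direction), and in YAP5SA 13 rose and 9 fell (57.9% against 44.3%, 22.7 and 21.6% by direction). In TAZ-CAMTA1, 7 rose and 1 fell (21.1% against 4.98%, 3.55 and 1.44% by direction). A change of at least 2-fold passed the test for 15 members in YAP-TFE3, 15 in the libraries labelled TAZ4SA, 14 in YAP5SA and 2 in TAZ-CAMTA1, against 16.4, 17.2, 15.7 and 1.46% of all genes. The counts for YAP-TFE3 include ITGAM, which passed the filter on low counts only through the YAP-TFE3 libraries. With a minimum mean of 20 counts, which leaves ITGAM out, 18 of 34 members rose in YAP-TFE3 and 7 fell. Over all genes, 4468 of 15855 then rose and 4186 fell. Scaling by total counts instead of trimmed means moved the median of all genes by -0.185 in YAP5SA and by -0.197 in the libraries labelled TAZ4SA, on the log2 scale. The split of risen and fallen members then became 11 and 14 in the former and 11 and 15 in the latter. For YAP-TFE3 it became 17 and 7, against 4319 and 5538 of 19997 genes, and for TAZ-CAMTA1 6 and 1, against 682 and 358. The 4 comparisons share their EV libraries. Together the members took 0.528 to 0.538% of all counts in EV, 0.703 to 0.79% in YAP-TFE3 and 0.451 to 0.461% in the libraries labelled TAZ4SA.

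**Figure D1:**
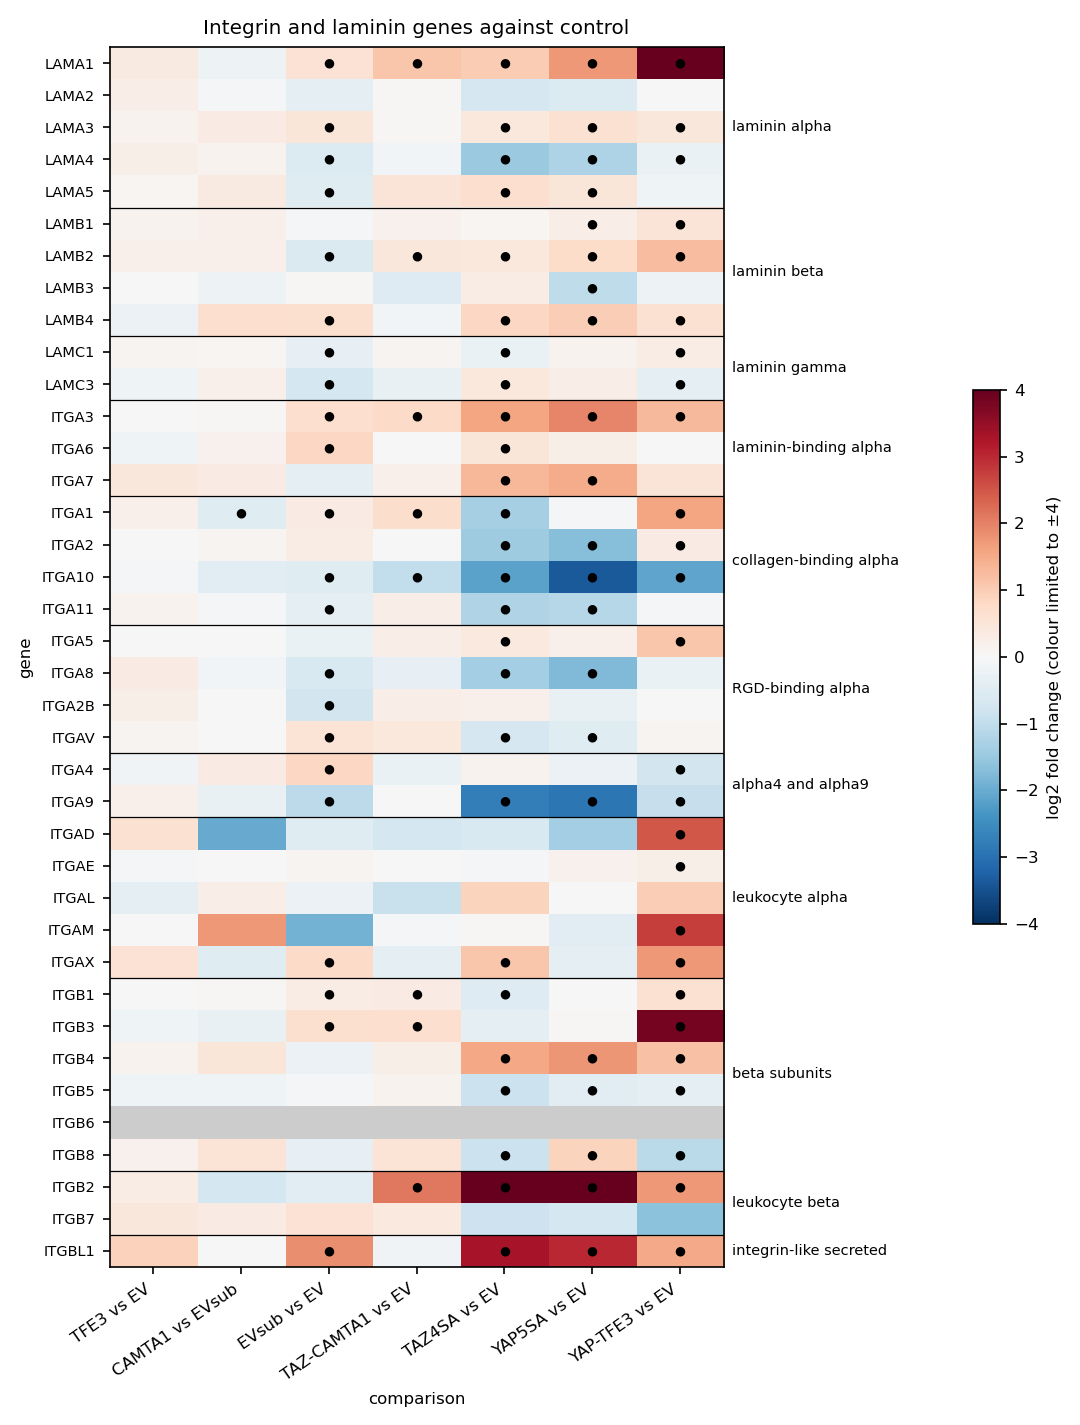
Log2 fold changes of 38 of the 39 members (rows, grouped by role) in the 7 comparisons with an empty vector control (columns), with dots for adjusted p under 0.05 and grey for the untested ITGB6. The TFE3 column holds no dot and the CAMTA1 column 1, whereas the darkest cells include LAMA1 and ITGB3 in YAP-TFE3 and ITGB2 in YAP5SA and the libraries labelled TAZ4SA.

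LAMA1, an alpha chain known mainly from embryonic basement membranes, showed the largest change of any member. LAMA1 (ENSG00000101680, chr18:6941742-7117797, minus strand in hg38) was at 3.48, 3.47 and 3.59 CPM in EV, 6.40, 4.19 and 5.17 in EVsub, 5.02, 4.46 and 4.03 in CAMTA1 and 4.65, 3.94 and 4.94 in TFE3. It was at 7.39, 8.35 and 7.19 CPM in TAZ-CAMTA1, 6.99, 7.77 and 6.56 in the libraries labelled TAZ4SA, 294, 317 and 372 in YAP-TFE3 and 11.6, 10.7 and 12.7 in YAP5SA. Every YAP-TFE3 library lay far above every other library, and the libraries of the other 3 coactivator groups all lay above the 3 of EV. LAMA1 rose in YAP-TFE3 (log2 fold change 6.54 ± 0.15, adjusted p = 3.69e-20), and by much less in YAP5SA (1.73 ± 0.14, adjusted p = 3.36e-10), TAZ-CAMTA1 (1.12 ± 0.14, adjusted p = 7.88e-06) and the libraries labelled TAZ4SA (1.02 ± 0.14, adjusted p = 2.63e-06). Noncoding genes on the opposite strand overlap 2 stretches of its exons, and whether the deposited counts used strand was not stated. In such bulk samples, a larger share of cells with a transcript and more of it per cell cannot be told apart.

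LAMA4, an alpha chain of vascular and mesenchymal basement membranes, went the other way. LAMA4 (ENSG00000112769, chr6:112107931-112254939, minus strand) stood at 394, 431 and 382 CPM in EV, 296, 279.9 and 255 in EVsub, 284, 321 and 308 in CAMTA1 and 497, 469.8 and 459 in TFE3. The values were 396, 384 and 349 CPM in TAZ-CAMTA1, 148, 151 and 129.5 in the libraries labelled TAZ4SA, 349.7, 357 and 297 in YAP-TFE3 and 182, 173 and 158 in YAP5SA. The libraries labelled TAZ4SA and those of YAP5SA lay below all others, without overlap. LAMA4 fell in both (log2 fold change -1.49 ± 0.091, adjusted p = 2.98e-12, and -1.23 ± 0.09, adjusted p = 6.63e-11). A small fall in YAP-TFE3 (log2 fold change -0.27 ± 0.088, adjusted p = 0.0156) was not called without EV replicate 2 or YAP-TFE3 replicate 3, without the filter on low counts or in a fit of the 2 groups alone (log2 fold change -0.27 to -0.19, adjusted p from 0.0625 to 0.087). Of 6 endothelial markers listed, 3 fell and 2 rose in the libraries labelled TAZ4SA and 4 fell and 1 rose in YAP5SA. In these comparisons 49.2 and 44.3% of all tested genes were called. Their summed level was 201 to 248 CPM in EV, 96.6 to 126 in YAP5SA, 142 to 162 in YAP-TFE3 and 298 to 389.7 in the libraries labelled TAZ4SA. Their defining gene CDH5 held 644 to 1434 counts per library in EV, 77 to 154 in YAP5SA and 520 to 877 in the libraries labelled TAZ4SA. Their part in the result was not tested.

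Of the other laminin alpha chains, LAMA3, the chain of the laminins that anchor epithelia, rose from 14.1 ± 0.63 CPM in EV to 21.5 ± 2.66 in YAP5SA (log2 fold change 0.61 ± 0.13, adjusted p = 6.81e-04) and to 19.4 ± 1.68 in YAP-TFE3 (0.46 ± 0.13, adjusted p = 0.00645). Its value in the libraries labelled TAZ4SA was 18.7 ± 1.10 CPM (0.41 ± 0.13, adjusted p = 0.0143), a call lost without TAZ4SA replicate 3 or with total-count scaling (log2 fold change 0.21 to 0.37, adjusted p from 0.05 to 0.215). LAMA5, the most widespread alpha chain of adult tissue, rose in the libraries labelled TAZ4SA from 194 ± 31.5 to 307 ± 19.4 CPM (log2 fold change 0.66 ± 0.15, adjusted p = 9.71e-04). Its 273 ± 67.0 CPM in YAP5SA also passed the test (0.49 ± 0.15, adjusted p = 0.0109), but not without EV replicate 1 or 2 or YAP5SA replicate 3 or with total-count scaling (log2 fold change 0.32 to 0.43, adjusted p from 0.0539 to 0.119). LAMA2, the chain of muscle laminin, was called in none of the 4 comparisons and held 13 to 52 counts per library.

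Among the beta chains, LAMB2, known from the neuromuscular junction and the kidney filter, was higher in all 4 coactivator groups. LAMB2 (ENSG00000172037, chr3:49121114-49133118, minus strand) was at 159, 186 and 209.9 CPM in EV, 126, 119.6 and 124 in EVsub, 142, 143 and 143 in CAMTA1 and 239, 173 and 219 in TFE3. Its values were 257, 247 and 256 CPM in TAZ-CAMTA1, 252, 248 and 239.7 in the libraries labelled TAZ4SA, 426, 491 and 389 in YAP-TFE3 and 287, 331 and 307 in YAP5SA. The YAP-TFE3 libraries were the highest of all, and none of the 12 libraries with a fusion or hyperactive coactivator overlapped EV. LAMB2 rose in YAP-TFE3 (log2 fold change 1.24 ± 0.11, adjusted p = 1.04e-09) and YAP5SA (0.74 ± 0.11, adjusted p = 3.64e-06). In TAZ-CAMTA1 its call (0.46 ± 0.10, adjusted p = 0.00961) was lost without EV replicate 1 (log2 fold change 0.36, adjusted p = 0.0779), and in the libraries labelled TAZ4SA (0.42 ± 0.10, adjusted p = 0.00205) with total-count scaling (log2 fold change 0.22, adjusted p = 0.0667).

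LAMB3, the beta chain that pairs with LAMA3 in anchoring laminin, fell in YAP5SA alone among the comparisons with EV. LAMB3 (ENSG00000196878, chr1:209614870-209652425, minus strand) was at 14.2, 19.5 and 14.1 CPM in EV, 17.0, 14.3 and 17.7 in EVsub, 16.4, 13.4 and 12.4 in CAMTA1 and 19.3, 16.2 and 13.0 in TFE3. The other groups held 12.8, 12.2 and 8.33 CPM in TAZ-CAMTA1, 24.5, 19.7 and 14.2 in the libraries labelled TAZ4SA, 14.6, 16.8 and 9.86 in YAP-TFE3 and 9.82, 8.27 and 5.42 in YAP5SA. YAP5SA was the lowest group and did not overlap EV, while the TAZ-CAMTA1 libraries, also below all of EV, did not pass the test. The fall in YAP5SA had a log2 fold change of -1.03 ± 0.24 (adjusted p = 0.00103), and the difference between the libraries labelled TAZ4SA and those of YAP5SA was itself called (1.32 ± 0.24, adjusted p = 6.20e-04). LAMB1, the common beta chain, rose from 1167 ± 38.0 to 1652 ± 296 CPM in YAP-TFE3 (log2 fold change 0.50 ± 0.11, adjusted p = 3.82e-04), and its smaller difference in YAP5SA (0.27 ± 0.11, adjusted p = 0.0395) was not called without YAP5SA replicate 3 or any 1 of the 3 EV libraries or with total-count scaling (log2 fold change 0.089 to 0.30, adjusted p from 0.0561 to 0.532). LAMB4 rose in YAP5SA from 2.06 ± 0.368 to 4.04 ± 0.127 CPM (log2 fold change 0.98 ± 0.24, adjusted p = 0.00181). Calls of LAMB4 in the libraries labelled TAZ4SA (0.82 ± 0.24, adjusted p = 0.00665) and in YAP-TFE3 (0.62 ± 0.24, adjusted p = 0.0348) were lost, the former without TAZ4SA replicate 1 (log2 fold change 0.56, adjusted p = 0.0753) and the latter without EV replicate 1 or 2 or YAP-TFE3 replicate 1 or 2, with total-count scaling or in a fit of the 2 groups alone (log2 fold change 0.47 to 0.68, adjusted p from 0.0531 to 0.157).

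Among the gamma chains, LAMC1, the gamma chain of most laminins, rose in YAP-TFE3 from 649 ± 55.2 to 791 ± 35.4 CPM (log2 fold change 0.28 ± 0.087, adjusted p = 0.00902). In the libraries labelled TAZ4SA LAMC1 was called lower (-0.26 ± 0.087, adjusted p = 0.0179), a call lost without EV replicate 2 or TAZ4SA replicate 3 or without the filter on low counts (log2 fold change -0.24 to -0.18, adjusted p from 0.0518 to 0.121). LAMC3, which averaged 33.5 ± 3.02 CPM in EV, stood at 25.5 ± 3.87 in YAP-TFE3 and at 44.5 ± 4.37 under the TAZ4SA label, and both differences were called (-0.40 ± 0.14, adjusted p = 0.0256, and 0.41 ± 0.14, adjusted p = 0.0202). The first was lost without EV replicate 2 or YAP-TFE3 replicate 1 or 3 (log2 fold change -0.36 to -0.31, adjusted p from 0.0728 to 0.109), and the second without EV replicate 1 or 3 or TAZ4SA replicate 1 or 2 or with total-count scaling (log2 fold change 0.21 to 0.40, adjusted p from 0.0536 to 0.193).

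**Figure D2:**
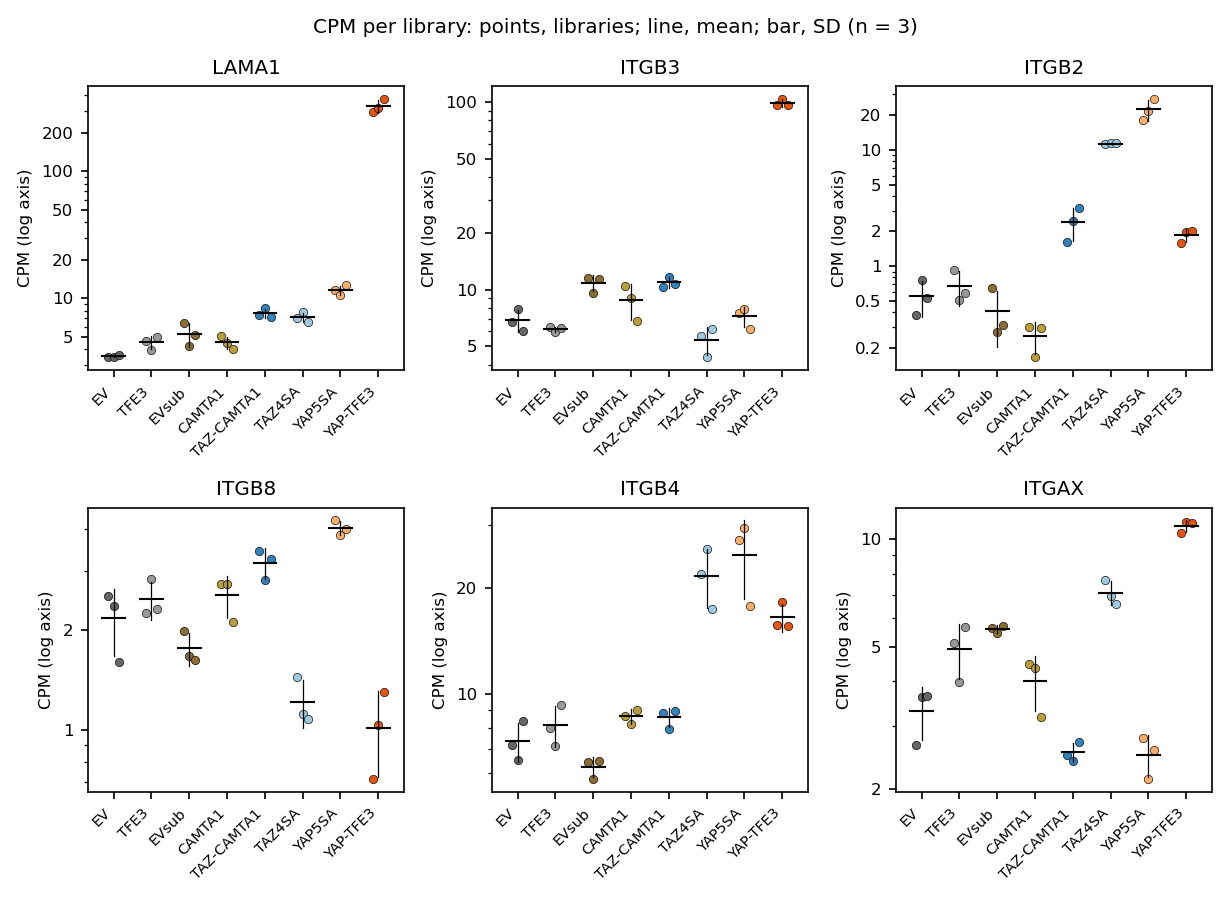
CPM of LAMA1, ITGB3, ITGB2, ITGB8, ITGB4 and ITGAX in each library (points, logarithmic axes), with the group mean (line) and SD (bar, n = 3). The YAP-TFE3 libraries stand alone at the top for LAMA1, ITGB3 and ITGAX, and YAP5SA and the libraries labelled TAZ4SA for ITGB2.

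The make-up of the chain classes differed between the groups. Shares were computed in each library from CPM per kb of exon, so that chains of unequal length can be compared, and were not tested. LAMA4 made 69.4 ± 4.17% of the laminin alpha chains in EV, 45 ± 4.43% in YAP-TFE3, 40.6 ± 7.40% in YAP5SA and 33.9 ± 3.13% in the libraries labelled TAZ4SA. LAMA1 made 0.458 ± 0.0146% in EV and 33.3 ± 3.92% in YAP-TFE3, with no more than 2.31% in any library of another group. LAMA5 took 28.1 ± 4.20% in EV, 53.1 ± 7.52% in YAP5SA and 61.1 ± 3.10% in the libraries labelled TAZ4SA. The leading alpha chain on average was LAMA4 in EV and YAP-TFE3 and LAMA5 in YAP5SA and the libraries labelled TAZ4SA. LAMB1 and LAMC1 stayed the leading beta and gamma chains in every group, at no less than 56.9% and 92.0% on average.

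**Figure D3:**
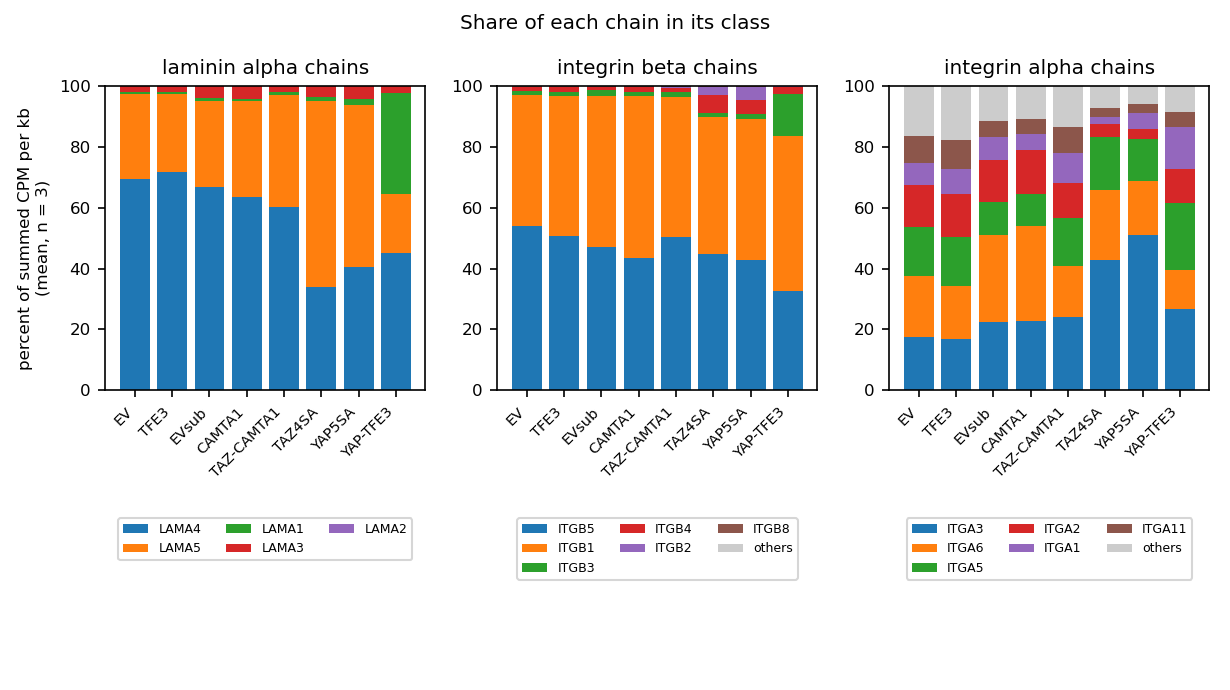
Mean share of each chain in its class (percent of summed CPM per kb of exon, n = 3 libraries a group) for laminin alpha, integrin beta and integrin alpha chains. LAMA1 and ITGB3 fill visible parts of their columns in YAP-TFE3, and ITGA3 takes the largest part of the alpha chains in YAP5SA and in the libraries labelled TAZ4SA.

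ITGA3, the alpha chain of a major laminin receptor of epithelia, rose in all 4 coactivator groups. ITGA3 (ENSG00000005884, chr17:50055968-50090481, plus strand) was at 255, 279 and 342 CPM in EV, 468, 424 and 506 in EVsub, 539.6, 486 and 427 in CAMTA1 and 294, 263 and 306 in TFE3. It was at 454, 471 and 558 CPM in TAZ-CAMTA1, 888, 865 and 865 in the libraries labelled TAZ4SA, 644, 729 and 758 in YAP-TFE3 and 1088, 1149 and 1139 in YAP5SA. All 12 of these libraries exceeded every EV library, with YAP5SA highest. The log2 fold changes were 1.95 ± 0.11 in YAP5SA (adjusted p = 9.03e-13), 1.58 ± 0.11 in the libraries labelled TAZ4SA (adjusted p = 2.87e-11), 1.28 ± 0.11 in YAP-TFE3 (adjusted p = 8.86e-10) and 0.76 ± 0.11 in TAZ-CAMTA1 (adjusted p = 5.34e-05). Its share of the integrin alpha chains went from 17.5 ± 2.31% in EV to 50.9 ± 2.60% in YAP5SA and 43.0 ± 1.37% in the libraries labelled TAZ4SA.

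The other laminin-binding alpha chains changed in fewer groups. ITGA6, which joins ITGB4 in hemidesmosomes, rose in the libraries labelled TAZ4SA from 226 ± 27.7 to 317 ± 15.1 CPM (log2 fold change 0.49 ± 0.10, adjusted p = 3.88e-04) and was not called in the other 3 groups. ITGA7, the laminin receptor chain of muscle (ENSG00000135424, chr12:55684568-55716404, minus strand), was at 1.93, 2.36 and 3.05 CPM in EV, 1.75, 2.30 and 1.70 in EVsub, 2.29, 2.45 and 2.41 in CAMTA1 and 3.42, 2.53 and 4.03 in TFE3. Its values were 2.42, 2.77 and 3.10 CPM in TAZ-CAMTA1, 5.86, 6.53 and 5.86 in the libraries labelled TAZ4SA, 2.08, 2.98 and 5.17 in YAP-TFE3 and 6.75, 6.51 and 6.87 in YAP5SA. It lay above EV in all libraries of YAP5SA and of the set labelled TAZ4SA, whereas the YAP-TFE3 libraries spread over both ranges. ITGA7 rose in YAP5SA (log2 fold change 1.47 ± 0.24, adjusted p = 1.95e-05) and the libraries labelled TAZ4SA (1.33 ± 0.24, adjusted p = 6.13e-05). Its exons overlap those of 3 genes on the opposite strand.

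The 4 collagen-binding alpha chains, which all pair with ITGB1, were mostly lower under the hyperactive coactivators. In the libraries labelled TAZ4SA 4 of the 4 fell and in YAP5SA 3, where 24.2 and 21.6% of all tested genes fell. ITGA2 (ENSG00000164171, chr5:52989340-53094779, plus strand), a receptor chain for fibrillar collagen, was at 189.8, 189 and 183 CPM in EV, 259, 203 and 235 in EVsub, 247, 232 and 268 in CAMTA1 and 173, 188 and 213 in TFE3. It was at 166, 197 and 207 CPM in TAZ-CAMTA1, 69.7, 66.1 and 72.5 in the libraries labelled TAZ4SA, 279.8, 253 and 177 in YAP-TFE3 and 56.1, 57.1 and 60.8 in YAP5SA. The libraries labelled TAZ4SA and those of YAP5SA formed the 2 lowest groups, with no overlap with any other. ITGA2 fell in both (log2 fold change -1.43 ± 0.13, adjusted p = 1.82e-09, and -1.69 ± 0.13, adjusted p = 1.23e-10). In YAP-TFE3 ITGA2 was called higher (0.34 ± 0.12, adjusted p = 0.0269), a call lost without YAP-TFE3 replicate 1 or 2 or any 1 of the 3 EV libraries, with total-count scaling or in a fit of the 2 groups alone (log2 fold change 0.20 to 0.35, adjusted p from 0.0528 to 0.213). ITGA11 (ENSG00000137809, chr15:68296532-68432163, minus strand), a collagen receptor chain of fibroblasts, was at 147, 168 and 169 CPM in EV, 126, 120.4 and 131 in EVsub, 119, 121 and 126 in CAMTA1 and 194, 170.4 and 172 in TFE3. Its values were 204, 195 and 183 CPM in TAZ-CAMTA1, 79.5, 72.7 and 56.1 in the libraries labelled TAZ4SA, 151, 173 and 132 in YAP-TFE3 and 77.0, 80.1 and 63.5 in YAP5SA. As for ITGA2, the libraries labelled TAZ4SA and those of YAP5SA were lower than all others. ITGA11 fell in the libraries labelled TAZ4SA (log2 fold change -1.21 ± 0.11, adjusted p = 4.74e-09) and YAP5SA (-1.13 ± 0.11, adjusted p = 1.51e-08).

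ITGA10, a collagen receptor chain of cartilage, fell in all 4 groups. ITGA10 (ENSG00000143127, chr1:145891208-145910111, minus strand) was at 8.31, 10.1 and 9.16 CPM in EV, 6.78, 5.32 and 7.44 in EVsub, 4.54, 4.83 and 5.11 in CAMTA1 and 9.38, 8.67 and 7.81 in TFE3. It was at 5.0, 4.66 and 4.18 CPM in TAZ-CAMTA1, 2.45, 2.32 and 1.5 in the libraries labelled TAZ4SA, 1.98, 2.26 and 2.14 in YAP-TFE3 and 1.13, 0.951 and 0.602 in YAP5SA. No library of these 4 groups reached the EV range, and YAP5SA was lowest. The log2 fold changes were -3.37 ± 0.20 in YAP5SA (adjusted p = 2.22e-12), -2.14 ± 0.18 in the libraries labelled TAZ4SA (adjusted p = 6.11e-10), -2.11 ± 0.17 in YAP-TFE3 (adjusted p = 4.39e-10) and -1.0 ± 0.16 in TAZ-CAMTA1 (adjusted p = 2.68e-04).

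ITGA1, another collagen receptor chain, separated the fusions from the hyperactive coactivators. ITGA1 (ENSG00000213949, chr5:52787916-52959209, plus strand) was at 227, 237 and 233 CPM in EV, 341, 229 and 303 in EVsub, 182, 213 and 223 in CAMTA1 and 239, 253 and 302 in TFE3. It was at 353, 373 and 421 CPM in TAZ-CAMTA1, 90.6, 95.4 and 94.2 in the libraries labelled TAZ4SA, 744, 629 and 689.5 in YAP-TFE3 and 235, 221 and 204 in YAP5SA. YAP-TFE3 was highest, TAZ-CAMTA1 next and the libraries labelled TAZ4SA lowest, all clear of EV, while YAP5SA overlapped EV. ITGA1 rose in YAP-TFE3 (log2 fold change 1.57 ± 0.12, adjusted p = 1.14e-10) and TAZ-CAMTA1 (0.72 ± 0.12, adjusted p = 2.68e-04) and fell in the libraries labelled TAZ4SA (-1.31 ± 0.12, adjusted p = 2.55e-09). Exons of PELO lie within ITGA1 on the same strand, so reads of the 2 genes may not have been kept apart in the counts.

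**Figure D4:**
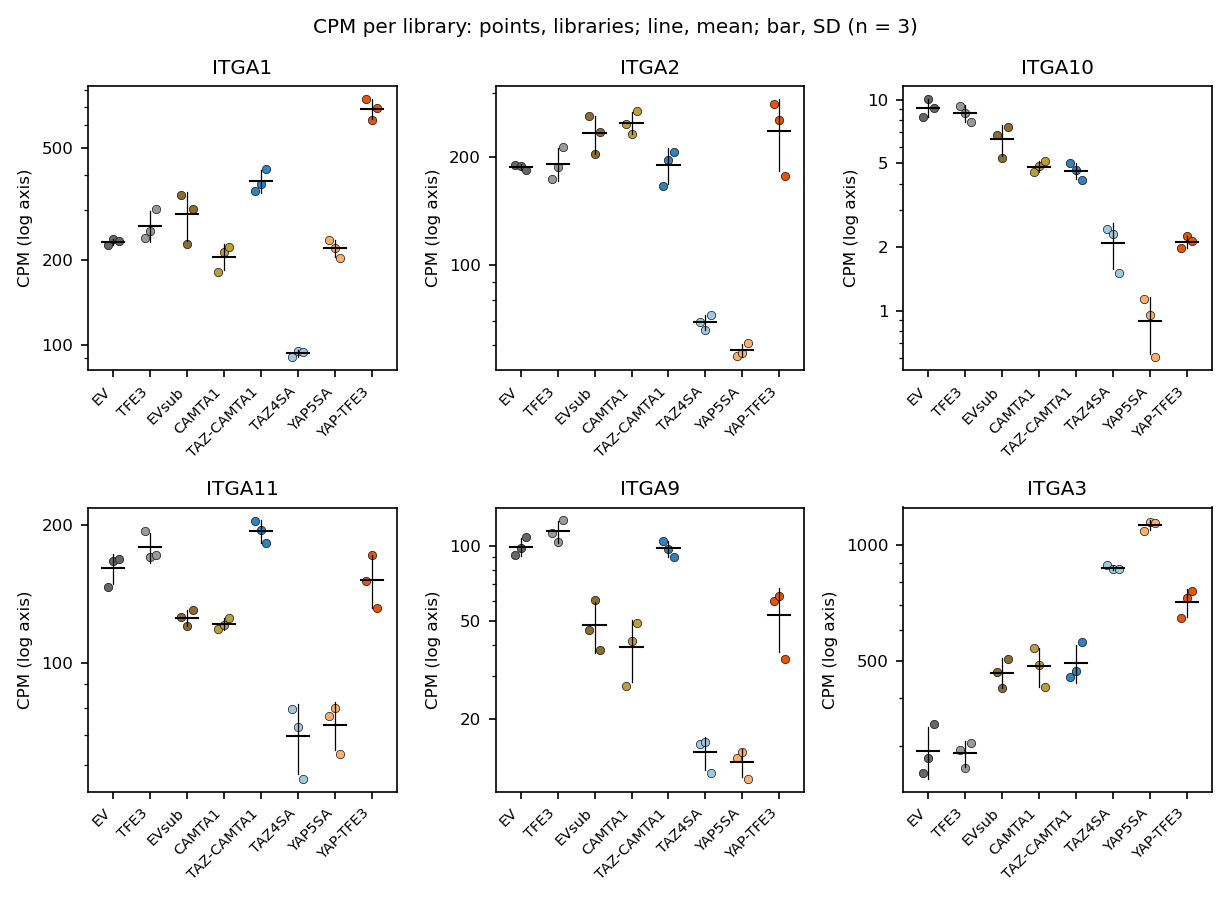
CPM of ITGA1, ITGA2, ITGA10, ITGA11, ITGA9 and ITGA3 in each library (points, logarithmic axes), with the group mean (line) and SD (bar, n = 3). The libraries labelled TAZ4SA and those of YAP5SA are the lowest for ITGA2, ITGA11 and ITGA9 and the highest for ITGA3, whereas YAP-TFE3 is highest for ITGA1.

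Of the alpha chains that bind RGD ligands, ITGA5, the fibronectin receptor chain, was highest in YAP-TFE3. ITGA5 (ENSG00000161638, chr12:54395261-54419266, minus strand) was at 182, 210.1 and 216 CPM in EV, 164, 157 and 181 in EVsub, 172, 171 and 162 in CAMTA1 and 235, 183 and 200.2 in TFE3. It was at 255, 229.9 and 245 CPM in TAZ-CAMTA1, 295, 283 and 219 in the libraries labelled TAZ4SA, 406, 447 and 467 in YAP-TFE3 and 258, 264 and 171 in YAP5SA. The YAP-TFE3 libraries lay above all others, and the YAP5SA libraries fell on both sides of EV. ITGA5 rose in YAP-TFE3 (log2 fold change 1.12 ± 0.13, adjusted p = 1.92e-07). In the libraries labelled TAZ4SA its call (0.39 ± 0.13, adjusted p = 0.0157) was lost without EV replicate 1 or TAZ4SA replicate 1 or 2 or with total-count scaling (log2 fold change 0.19 to 0.34, adjusted p from 0.0639 to 0.16). ITGA8 (ENSG00000077943, chr10:15513954-15719922, minus strand), a receptor chain for nephronectin, was at 16.7, 20.3 and 14.7 CPM in EV, 11.2, 10.6 and 11.8 in EVsub, 6.68, 11.0 and 14.2 in CAMTA1 and 23.1, 21.8 and 19.6 in TFE3. Its values were 15.5, 14.3 and 11.5 CPM in TAZ-CAMTA1, 6.91, 7.94 and 5.55 in the libraries labelled TAZ4SA, 12.9, 11.4 and 19.0 in YAP-TFE3 and 5.90, 4.71 and 4.58 in YAP5SA. The libraries labelled TAZ4SA and those of YAP5SA lay below every EV library, and ITGA8 fell in both (log2 fold change -1.35 ± 0.21, adjusted p = 1.51e-05, and -1.77 ± 0.22, adjusted p = 5.61e-07). ITGAV, the alpha chain shared by the vitronectin receptors, fell from 82.5 ± 4.63 to 52.3 ± 9.70 CPM in the libraries labelled TAZ4SA (log2 fold change -0.66 ± 0.16, adjusted p = 0.00135). Its 59.4 ± 6.91 CPM in YAP5SA also passed (-0.47 ± 0.16, adjusted p = 0.0171), except without EV replicate 1 or YAP5SA replicate 1 or 2 (log2 fold change -0.45 to -0.41, adjusted p from 0.0549 to 0.0779). ITGA2B, known from the platelet fibrinogen receptor, was called in none of the 4 groups and its group means lay between 5.21 and 10.3 CPM.

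ITGA9, a receptor chain for tenascin and other matrix proteins, fell further than any other member in the libraries labelled TAZ4SA, and only ITGA10 exceeded its fall in YAP5SA. ITGA9 (ENSG00000144668, chr3:37452115-37823507, plus strand) was at 92.0, 97.7 and 109 CPM in EV, 45.8, 60.3 and 38.2 in EVsub, 27.2, 41.5 and 48.7 in CAMTA1 and 113, 103 and 127 in TFE3. It was at 105, 97.6 and 90.3 CPM in TAZ-CAMTA1, 15.9, 16.3 and 12.2 in the libraries labelled TAZ4SA, 60.2, 62.7 and 35.1 in YAP-TFE3 and 14.0, 14.8 and 11.5 in YAP5SA. The libraries labelled TAZ4SA and those of YAP5SA were lowest, the YAP-TFE3 libraries lay between these and EV, and TAZ-CAMTA1 overlapped EV. ITGA9 fell in YAP5SA (log2 fold change -2.89 ± 0.21, adjusted p = 8.66e-11), the libraries labelled TAZ4SA (-2.75 ± 0.21, adjusted p = 1.70e-10) and YAP-TFE3 (-0.92 ± 0.19, adjusted p = 3.84e-04). Its relative ITGA4, a receptor chain for VCAM1 and fibronectin, fell in YAP-TFE3 from 20.6 ± 2.94 to 12.4 ± 2.67 CPM (log2 fold change -0.74 ± 0.15, adjusted p = 1.85e-04).

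ITGB3, the beta chain of vitronectin and platelet fibrinogen receptors, rose the most in YAP-TFE3. ITGB3 (ENSG00000259207, chr17:47253827-47313743, plus strand) was at 6.76, 7.88 and 6.06 CPM in EV, 11.6, 9.64 and 11.4 in EVsub, 10.5, 9.09 and 6.82 in CAMTA1 and 6.31, 5.96 and 6.28 in TFE3. It was at 10.3, 11.7 and 10.8 CPM in TAZ-CAMTA1, 5.66, 4.38 and 6.17 in the libraries labelled TAZ4SA, 95.9, 104 and 96.7 in YAP-TFE3 and 7.55, 7.89 and 6.19 in YAP5SA. The YAP-TFE3 libraries lay above all others by a wide margin, and TAZ-CAMTA1 was moderately above EV. ITGB3 rose in YAP-TFE3 (log2 fold change 3.84 ± 0.14, adjusted p = 4.94e-16) and TAZ-CAMTA1 (0.66 ± 0.14, adjusted p = 0.00492), and the difference between these fusions was itself called (-3.17 ± 0.14, adjusted p = 1.32e-14). Per length, ITGB3 made 13.7 ± 0.686% of the integrin beta chains in YAP-TFE3 and 1.23 ± 0.122% in EV. An annotated gene on the same strand, ENSG00000259753, shares exon sequence with ITGB3. The alpha partners of ITGB3, ITGAV and ITGA2B, were not called in YAP-TFE3 (0.12 ± 0.16, adjusted p = 0.564, and -0.023 ± 0.14, adjusted p = 0.913).

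ITGB4, the beta chain of hemidesmosomes, rose in 3 groups. ITGB4 (ENSG00000132470, chr17:75721328-75757818, plus strand) was at 7.18, 6.51 and 8.38 CPM in EV, 6.44, 5.77 and 6.47 in EVsub, 8.69, 8.23 and 9.03 in CAMTA1 and 8.03, 7.14 and 9.30 in TFE3. It was at 8.86, 7.98 and 8.95 CPM in TAZ-CAMTA1, 21.8, 25.7 and 17.4 in the libraries labelled TAZ4SA, 15.7, 18.2 and 15.6 in YAP-TFE3 and 27.2, 29.4 and 17.8 in YAP5SA. The libraries of YAP5SA, YAP-TFE3 and the set labelled TAZ4SA all lay above EV, whereas those of TAZ-CAMTA1 overlapped it. The log2 fold changes were 1.76 ± 0.16 in YAP5SA (adjusted p = 4.23e-09), 1.56 ± 0.16 in the libraries labelled TAZ4SA (adjusted p = 2.83e-08) and 1.17 ± 0.16 in YAP-TFE3 (adjusted p = 1.97e-06). Epithelial markers were also higher in the groups where ITGB4 rose, and in TAZ-CAMTA1 and EVsub, where ITGB4 was not called. Of 7 tested, 4 rose and 1 fell in YAP5SA, 3 and 1 in the libraries labelled TAZ4SA, 4 and 1 in YAP-TFE3 and 4 and 0 in TAZ-CAMTA1. The shares of all tested genes called in that order were 44.3, 49.2, 48.2 and 4.98%. The summed level of the 9 markers listed was 221 to 239.8 CPM in EV, 1911 to 2182 in the libraries labelled TAZ4SA, 3051 to 4073 in YAP5SA, 280.1 to 409.6 in YAP-TFE3, 435 to 466 in EVsub and 445 to 559 in TAZ-CAMTA1. Most of it was KRT8 and KRT18, while KRT14 held 0 to 4 and GRHL2 0 to 6 counts per library, and their part in the result was not tested.

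ITGB8, a beta chain that activates latent TGF-beta with ITGAV, moved in opposite directions under the hyperactive coactivators. ITGB8 (ENSG00000105855, chr7:20330702-20415754, plus strand) was at 2.52, 2.36 and 1.60 CPM in EV, 1.98, 1.67 and 1.62 in EVsub, 2.74, 2.74 and 2.11 in CAMTA1 and 2.25, 2.83 and 2.31 in TFE3. Its values were 3.45, 2.81 and 3.26 CPM in TAZ-CAMTA1, 1.45, 1.12 and 1.08 in the libraries labelled TAZ4SA, 0.715, 1.04 and 1.30 in YAP-TFE3 and 4.25, 3.85 and 4.02 in YAP5SA. YAP5SA lay above EV, and YAP-TFE3 and the libraries labelled TAZ4SA below it. It rose in YAP5SA (log2 fold change 0.89 ± 0.19, adjusted p = 5.85e-04) and fell in YAP-TFE3 (-1.09 ± 0.21, adjusted p = 1.59e-04) and the libraries labelled TAZ4SA (-0.84 ± 0.22, adjusted p = 0.00233). The difference between the libraries labelled TAZ4SA and YAP5SA was called (-1.73 ± 0.21, adjusted p = 3.94e-06).

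The most abundant beta chains changed less. ITGB1, the partner of most alpha chains here, rose from 516 ± 37.1 to 783 ± 35.7 CPM in YAP-TFE3 (log2 fold change 0.60 ± 0.092, adjusted p = 7.81e-06) and fell to 360.0 ± 37.3 in the libraries labelled TAZ4SA (-0.52 ± 0.092, adjusted p = 5.35e-05). A call in TAZ-CAMTA1 (0.32 ± 0.091, adjusted p = 0.0393) was lost without EV replicate 2 or 3 or TAZ-CAMTA1 replicate 2 or 3 or with total-count scaling (log2 fold change 0.27 to 0.33, adjusted p from 0.0714 to 0.209). ITGB5, a vitronectin receptor chain, fell from 289.6 ± 18.7 to 161 ± 35 CPM in the libraries labelled TAZ4SA (log2 fold change -0.84 ± 0.14, adjusted p = 3.84e-05). Lower values of ITGB5 in YAP5SA (-0.45 ± 0.14, adjusted p = 0.0133) and YAP-TFE3 (-0.37 ± 0.14, adjusted p = 0.0389) were also called, the former not without EV replicate 2 or YAP5SA replicate 3 (log2 fold change -0.41 to -0.31, adjusted p from 0.0501 to 0.0937), and the latter not without EV replicate 2 or 3 or YAP-TFE3 replicate 1 or 3 (log2 fold change -0.40 to -0.25, adjusted p from 0.0514 to 0.179). ITGB1 and ITGB5 together made most of the beta chains per length in every group, and ITGB5 went from 54.0 ± 2.85% in EV to 32.6 ± 3.58% in YAP-TFE3.

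ITGB2, the beta chain of leukocyte integrins, rose strongly from a low level. ITGB2 (ENSG00000160255, chr21:44885953-44931989, minus strand) was at 0.38, 0.762 and 0.533 CPM in EV, 0.648, 0.27 and 0.312 in EVsub, 0.301, 0.165 and 0.295 in CAMTA1 and 0.935, 0.512 and 0.585 in TFE3. It was at 1.63, 2.43 and 3.17 CPM in TAZ-CAMTA1, 11.1, 11.5 and 11.3 in the libraries labelled TAZ4SA, 1.59, 1.98 and 1.99 in YAP-TFE3 and 18.0, 21.4 and 27.4 in YAP5SA. All 12 libraries of the fusions and hyperactive coactivators exceeded every EV library, with YAP5SA highest and the libraries labelled TAZ4SA next. The log2 fold changes were 5.32 ± 0.27 in YAP5SA (adjusted p = 1.55e-13), 4.34 ± 0.28 in the libraries labelled TAZ4SA (adjusted p = 6.32e-12), 2.12 ± 0.30 in TAZ-CAMTA1 (adjusted p = 5.98e-05) and 1.74 ± 0.31 in YAP-TFE3 (adjusted p = 5.95e-05). EV held 11 to 20 counts of it per library, which limits the precision of these folds. The antisense gene ITGB2-AS1 overlaps its exons, and reads of the 2 genes cannot be told apart if strand was not used.

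Among the alpha partners of ITGB2, ITGAX, the alpha chain of a complement receptor of myeloid cells, was the only one with a mean of at least 50 counts. ITGAX (ENSG00000140678, chr16:31355134-31382999, plus strand) was at 2.66, 3.62 and 3.63 CPM in EV, 5.64, 5.45 and 5.73 in EVsub, 4.48, 4.36 and 3.19 in CAMTA1 and 5.11, 3.97 and 5.69 in TFE3. It was at 2.50, 2.40 and 2.71 CPM in TAZ-CAMTA1, 7.67, 6.96 and 6.59 in the libraries labelled TAZ4SA, 10.4, 11.1 and 11.1 in YAP-TFE3 and 2.78, 2.14 and 2.57 in YAP5SA. YAP-TFE3 was highest, followed by the libraries labelled TAZ4SA, and YAP5SA overlapped EV. ITGAX rose in YAP-TFE3 (log2 fold change 1.73 ± 0.15, adjusted p = 1.64e-09) and the libraries labelled TAZ4SA (1.11 ± 0.16, adjusted p = 2.73e-06). ITGAD held 8, 13 and 6 counts in the EV libraries and 72, 55 and 70 in those of YAP-TFE3, where it was called higher (adjusted p = 3.59e-06). ITGAM held 5, 3 and 3 counts in EV and 25, 18 and 56 in YAP-TFE3. It passed the filter on low counts only through the YAP-TFE3 libraries, so its call there supports nothing. ITGAL was called in none of the 4 groups, at 1 to 23 counts per library. ITGAE and ITGB7, which pair with each other on mucosal lymphocytes, were at 23.3 ± 1.38 CPM and at 3 to 6 counts per library in EV. ITGAE in YAP-TFE3 passed the test by a small margin (0.24 ± 0.091, adjusted p = 0.033), and the call was lost without EV replicate 1 or 2 or YAP-TFE3 replicate 1 or 2, without the filter on low counts, with total-count scaling or in a fit of the 2 groups alone (log2 fold change 0.16 to 0.27, adjusted p from 0.0575 to 0.176).

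Of the 7 leukocyte markers listed, 2 or 3 held at most 3 counts in every library of a group, and the others held more. PTPRC, the common leukocyte antigen, held 0 to 1 counts per library, the myeloid factor SPI1 0 to 4 and the lymphocyte gene CD48 0 to 5. The summed level of the 7 leukocyte markers was 17.4 to 19.6 CPM in EV, 13.6 to 15.5 in YAP5SA, 29.1 to 29.6 in the libraries labelled TAZ4SA and 199 to 229 in YAP-TFE3. Nearly all of the last was LCP1, an actin-bundling protein, at 199 ± 15.7 CPM. The summed platelet markers, 5 genes, lay between 1.16 and 3.44 CPM over all libraries.

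ITGBL1, a secreted protein with repeats like those of integrin beta chains, rose from 4 to 8 counts per library in EV. It held 48, 24 and 53 counts in YAP5SA, 55, 56 and 53 in the libraries labelled TAZ4SA, 23, 17 and 23 in YAP-TFE3 and 3, 8 and 7 in TAZ-CAMTA1. All libraries of the first 3 groups held more than any EV library, and TAZ-CAMTA1 overlapped EV. The rise was called in the libraries labelled TAZ4SA (log2 fold change 3.28 ± 0.40, adjusted p = 3.86e-07), YAP5SA (3.03 ± 0.41, adjusted p = 2.09e-06) and YAP-TFE3 (1.52 ± 0.46, adjusted p = 0.00868).

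Each fusion was then set directly against its hyperactive parent. They differ in the CAMTA1 or TFE3 part, in the part of TAZ or YAP that the fusion lacks and in the alanine changes, and these cannot be told apart. TAZ-CAMTA1 differed from the libraries labelled TAZ4SA at 28 members, 14 higher and 14 lower (73.7% against 53.7% of all genes, 26.9 and 26.8% by direction, or 18 higher and 12 lower with total-count scaling). YAP-TFE3 differed from YAP5SA at 27 members, 17 higher and 10 lower (71.1% against 52.4%, 28.1 and 24.3% by direction). Total-count scaling gave 21 higher and 10 lower here, against 6562 and 4044 of 19997 genes. With a minimum mean of 20 counts, which leaves ITGAM out, 15 of 34 were higher and 10 lower, against 4933 and 4499 of 15855 genes. These 2 comparisons have no library in common. A set of 10 members was called higher in both fusions and 8 lower in both, which together are 64.3% of the first list and 66.7% of the second, against 56.1% and 57.4% over all tested genes. The shares stood a little above those of all genes, and that difference was not tested. Total-count scaling moved the median of all genes by 0.198 on the log2 scale in the first comparison.

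The members higher in both fusions were all 4 collagen-binding alpha chains, ITGA8, ITGA9, ITGAV, ITGB1, ITGB3 and LAMA4. ITGA9, for example, was higher in TAZ-CAMTA1 than in the libraries labelled TAZ4SA (log2 fold change 2.72 ± 0.21, adjusted p = 1.92e-10) and higher in YAP-TFE3 than in YAP5SA (1.97 ± 0.21, adjusted p = 2.93e-08). For ITGA1 the values were 2.03 ± 0.12 (adjusted p = 1.94e-12) and 1.64 ± 0.12 (adjusted p = 4.17e-11), and for ITGA2 1.45 ± 0.13 (adjusted p = 1.40e-09) and 2.03 ± 0.13 (adjusted p = 5.01e-12). The members lower in both included ITGA3, ITGA4, ITGA7, ITGB2, ITGB4, ITGBL1 and LAMC3. The log2 fold changes of ITGB2 were -2.22 ± 0.22 (adjusted p = 1.31e-08) and -3.58 ± 0.23 (adjusted p = 4.79e-12), and those of ITGA3 -0.82 ± 0.11 (adjusted p = 8.97e-07) and -0.66 ± 0.11 (adjusted p = 1.41e-05). The call of ITGA4 in TAZ-CAMTA1 was lost without TAZ4SA replicate 3 or with total-count scaling (log2 fold change -0.37 to -0.22, adjusted p from 0.0589 to 0.236). LAMB3, ITGAX and ITGB8 differed in opposite directions in the 2 comparisons. ITGAX, for example, was lower in TAZ-CAMTA1 (-1.48 ± 0.16, adjusted p = 3.68e-08) and higher in YAP-TFE3 (2.12 ± 0.16, adjusted p = 8.09e-11), and ITGB8 showed the reverse (1.38 ± 0.21, adjusted p = 5.54e-06, and -1.98 ± 0.20, adjusted p = 1.83e-08).

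**Figure D5:**
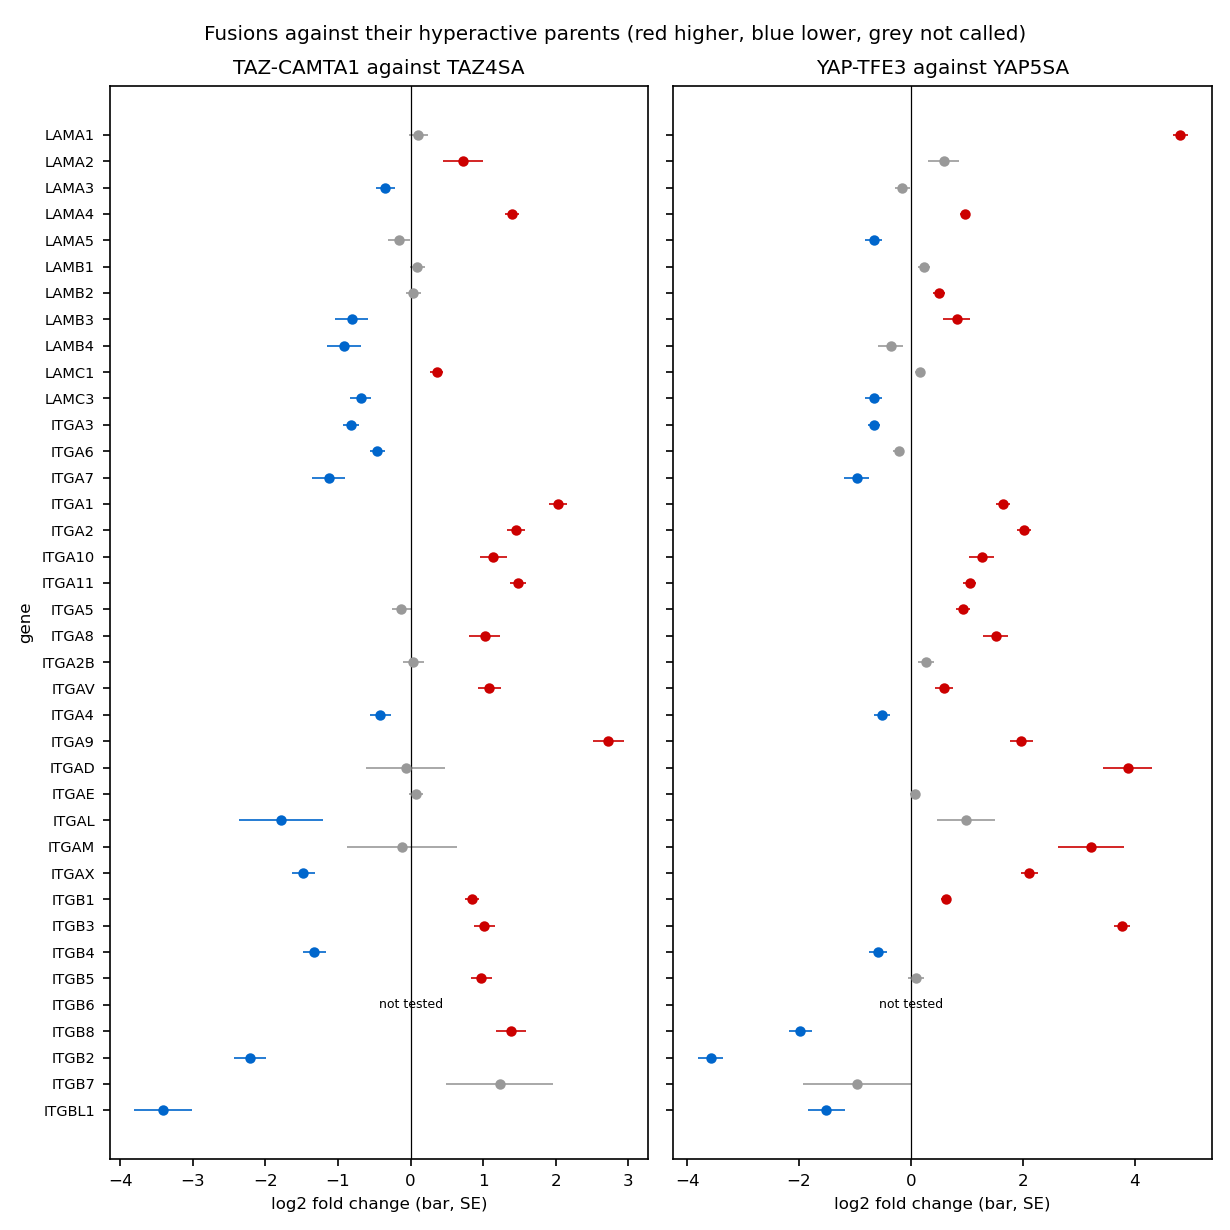
Log2 fold changes (points, bars for the SE) of 38 of the 39 members between a fusion and its hyperactive parent, TAZ-CAMTA1 against the libraries labelled TAZ4SA on the left and YAP-TFE3 against YAP5SA on the right. Red marks members called higher in the fusion and blue those called lower, at adjusted p under 0.05; the collagen-binding alpha chains are red on both sides and ITGB2, ITGA3 and ITGBL1 blue on both.

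The fusions also differed from each other, in a comparison that shares its libraries with those above. TAZ-CAMTA1 was lower than YAP-TFE3 at 19 members and higher at 8 (71.1% against 42.7% of all genes, with 22.8% lower and 19.9% higher), a split that became 14 and 10 with total-count scaling. With a minimum mean of 20 counts, which leaves ITGAM out, 16 of 34 were lower and 7 higher, against 4096 and 3586 of 15855 genes. Among the members lower in TAZ-CAMTA1, LAMA1 differed the most (log2 fold change -5.42 ± 0.13, adjusted p = 4.49e-19), and ITGB3 (-3.17 ± 0.14, adjusted p = 1.32e-14) and ITGAX (-2.10 ± 0.15, adjusted p = 1.21e-10). ITGB8 (1.63 ± 0.20, adjusted p = 6.23e-07) and ITGA10 (1.11 ± 0.17, adjusted p = 1.50e-05) were among those higher in TAZ-CAMTA1. The hyperactive coactivators were closer. Between the libraries labelled TAZ4SA and YAP5SA, 11 members differed, 4 higher in the former and 7 lower (28.9% against 7.17%, 3.53 and 3.64% by direction). Next to ITGB8 and LAMB3, these included ITGAX (1.5 ± 0.16, adjusted p = 9.01e-07) and ITGA10 (1.23 ± 0.23, adjusted p = 9.01e-04), both higher in the libraries labelled TAZ4SA, and ITGA1 (-1.24 ± 0.12, adjusted p = 1.60e-07), ITGB2 (-0.98 ± 0.20, adjusted p = 0.00204) and LAMA1 (-0.72 ± 0.13, adjusted p = 6.35e-04), which were lower.

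The empty vector groups, which differ in cell density, also differed from each other. EVsub differed from EV at 23 members, 13 higher and 10 lower (60.5% against 36.8% of all genes, 19.8 and 17.1% by direction), of which 3 changed at least 2-fold, as did 7.22% of all genes. These included ITGBL1 (log2 fold change 1.86 ± 0.45, adjusted p = 0.00249) and ITGA9 (-1.05 ± 0.20, adjusted p = 2.40e-04). ITGA6 (0.84 ± 0.10, adjusted p = 4.23e-06), ITGA4 (0.82 ± 0.14, adjusted p = 1.29e-04), ITGAX (0.77 ± 0.16, adjusted p = 5.27e-04) and ITGA3 (0.67 ± 0.11, adjusted p = 5.28e-05) were also higher below confluence, and LAMC3 (-0.72 ± 0.14, adjusted p = 5.20e-04), ITGA2B (-0.72 ± 0.15, adjusted p = 5.99e-04) and LAMB2 (-0.58 ± 0.11, adjusted p = 1.87e-04) were lower. ITGB3 (log2 fold change 0.65) and LAMA1 (0.59) were called higher below confluence as well. Of the 23 calls, 10 were lost in at least 1 fit without a single library, and these were members other than those just named.

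Few members were called for full-length CAMTA1 and TFE3. Against EVsub, CAMTA1 changed 1 member by edgeR (2.63% against 1.83% of all genes, 1.26 and 0.57% by direction) and 1 by DESeq2. By edgeR, 11 of the 38 members had an unadjusted p under 0.05, against 2474 of 19997 genes. Without the filter on low counts 3 of 39 members were called, 2 higher and 1 lower, against 652 of 41116 genes. In a fit of these groups alone 4 of 38 were called, of which 3 were higher, against 648 of 19997 genes. The member called in the main fit was ITGA1 (log2 fold change -0.50 ± 0.12, adjusted p = 0.02). Its call was lost without CAMTA1 replicate 1 or 2 or EVsub replicate 1 or 3 (log2 fold change -0.52 to -0.37, adjusted p from 0.0643 to 0.16). TFE3 changed 0 members against EV by edgeR and 0 by DESeq2, against 0.035% of all genes called by edgeR. By edgeR, 3 of the 38 members had an unadjusted p under 0.05, against 757 of 19997 genes. The LAMA1 values of TFE3 all lay above those of EV (0.36 ± 0.14, adjusted p = 1), as did those of ITGAX (0.58 ± 0.16, adjusted p = 0.564), without passing the test. The same held for LAMA4, LAMB1, ITGA1 and ITGA11. The share of all genes without overlap was not counted, so nothing is drawn from these members.

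Genes that work with integrins and laminins were followed through lists. Of all tested genes, 22.7% rose and 21.6% fell in YAP5SA, 25.1 and 24.2% in the libraries labelled TAZ4SA, 25.6 and 22.6% in YAP-TFE3 and 3.55 and 1.44% in TAZ-CAMTA1, and the counts of each list are to be read against these shares. Of the 26 tested adhesion adaptors, which link integrin tails to actin, 17 rose and 3 fell in YAP5SA, 17 and 3 in the libraries labelled TAZ4SA, 11 and 4 in YAP-TFE3, and 5 and 0 in TAZ-CAMTA1, or 76.9, 76.9, 57.7 and 19.2% called against 44.3, 49.2, 48.2 and 4.98% of all genes. Their median log2 fold change was 0.62 in the libraries labelled TAZ4SA, 0.52 in YAP5SA, 0.18 in YAP-TFE3 and 0.17 in TAZ-CAMTA1, against -0.035, -0.036, -0.011 and 0.0049 over all tested genes. LIMS2, an adaptor of the kinase ILK, rose the most, by 3.66 ± 0.16 in YAP5SA (adjusted p = 9.49e-15), 3.48 ± 0.16 in YAP-TFE3 (adjusted p = 1.85e-14), 3.09 ± 0.16 in TAZ-CAMTA1 (adjusted p = 1.82e-12) and 2.20 ± 0.16 in the libraries labelled TAZ4SA (adjusted p = 8.13e-11). NEDD9, a docking protein of focal adhesions, and ACTN4, an actin crosslinker, rose in the libraries labelled TAZ4SA (1.80 ± 0.11 and 1.72 ± 0.097) and YAP5SA (1.74 ± 0.11 and 1.66 ± 0.097).

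Other partners were split. Of the 13 basement membrane partners of laminins, 4 rose and 3 fell in YAP-TFE3, 5 and 3 in YAP5SA, 3 and 5 in the libraries labelled TAZ4SA, and 3 and 1 in TAZ-CAMTA1, whereas 9 fell and 0 rose in EVsub, or 61.5, 61.5, 53.8 and 30.8% called in YAP5SA, the libraries labelled TAZ4SA, YAP-TFE3 and TAZ-CAMTA1 against 44.3, 49.2, 48.2 and 4.98% of all genes. In EVsub, 17.1% of all genes fell. Their median log2 fold change was -0.12, 0.14, -0.15, 0.18 and -0.45 in YAP-TFE3, YAP5SA, the libraries labelled TAZ4SA, TAZ-CAMTA1 and EVsub, the last against -0.02 over all tested genes. HSPG2, the proteoglycan perlecan, rose in YAP5SA (log2 fold change 1.28 ± 0.13, adjusted p = 1.18e-08), and FBLN1, a matrix glycoprotein, fell in YAP-TFE3 (-1.55 ± 0.15, adjusted p = 8.29e-09). Of the 8 laminin receptors that are not integrins, 7 rose in YAP5SA, 6 in the libraries labelled TAZ4SA, 5 in YAP-TFE3 and 3 in TAZ-CAMTA1, against 22.7, 25.1, 25.6 and 3.55% of all genes, and RPSA, which has many near-identical pseudogenes, fell in YAP-TFE3. The median log2 fold change of these receptors was 0.87 in YAP5SA, 0.55 in the libraries labelled TAZ4SA, 0.58 in YAP-TFE3 and 0.24 in TAZ-CAMTA1, and over all tested genes it was -0.036, -0.035, -0.011 and 0.0049. The syndecan SDC4 rose by 1.85 ± 0.13 in the libraries labelled TAZ4SA (adjusted p = 3.38e-11) and by 1.73 ± 0.13 in YAP5SA (adjusted p = 1.02e-10), and dystroglycan, DAG1, by 1.11 ± 0.095 in YAP-TFE3 (adjusted p = 9.83e-10). In TAZ-CAMTA1, the calls of FBLN1, SDC2 and BCAM were each lost in at least 1 fit without a single library.

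Ligands that are not laminins held large changes in both directions. Of 19 tested, 13 rose and 2 fell in YAP-TFE3, 9 and 0 in TAZ-CAMTA1, 8 and 7 in the libraries labelled TAZ4SA, and 8 and 8 in YAP5SA. The shares called were 84.2, 78.9, 78.9 and 47.4% in YAP5SA, the libraries labelled TAZ4SA, YAP-TFE3 and TAZ-CAMTA1, against 44.3, 49.2, 48.2 and 4.98% of all genes. The call of CDH1 in TAZ-CAMTA1 was lost without EV replicate 1, 2 or 3 or TAZ-CAMTA1 replicate 3 (log2 fold change 3.12 to 3.85, adjusted p from 0.0958 to 0.165). Their median log2 fold change was 1.02, 0.33, 0.32 and 0.36 in YAP-TFE3, TAZ-CAMTA1, the libraries labelled TAZ4SA and YAP5SA, against -0.011, 0.0049, -0.035 and -0.036 over all tested genes. CCN2, a matricellular integrin ligand and known YAP target, rose in the libraries labelled TAZ4SA (log2 fold change 4.80 ± 0.21, adjusted p = 9.67e-15), YAP5SA (4.53 ± 0.21, adjusted p = 2.19e-14), YAP-TFE3 (3.12 ± 0.20, adjusted p = 5.47e-12) and TAZ-CAMTA1 (2.49 ± 0.19, adjusted p = 3.79e-09). POSTN, the matrix protein periostin, fell in the libraries labelled TAZ4SA (-5.61 ± 0.40, adjusted p = 4.43e-11) and YAP5SA (-3.53 ± 0.32, adjusted p = 3.47e-09) and rose in YAP-TFE3 (1.61 ± 0.25, adjusted p = 9.35e-06) and TAZ-CAMTA1 (1.48 ± 0.25, adjusted p = 4.45e-04).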

How the data were processed

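RNA was measured in 24 libraries of SW872 cells, 3 for each of 8 groups assigned from the sample labels. Per the labels and the study's methods, polyadenylated RNA was sequenced from a stranded kit, and the authors processed reads within bcbio-nextgen, by alignment to hg38 (Hisat2) and by Salmon pseudo-alignment summed to gene-level counts with tximport. They deposited whole-number counts per gene. Which of these routes made the deposited counts, and whether strand was used, are not given in the sources used here. All 24 libraries entered 1 quasi-likelihood fit (edgeR 4.0.16, R 4.3.3) with trimmed-mean scaling, over 19997 genes, those averaging no fewer than 5 counts a library. Calls required a Benjamini-Hochberg adjusted p under 0.05 over all tested genes. SE is the log2 fold change divided by the square root of F. CPM used the same scaling, and exon lengths and gene spans came from GENCODE. The members, gene lists and markers were chosen with earlier results of these data known. Values per library were given for members with a mean of at least 50 counts and a called change of at least 2-fold against an empty vector, and for low members as counts. From each gene list, at most the 3 genes with the largest called changes in a comparison were named, besides calls lost without 1 library. The alternatives were no filter, a mean of at least 20 counts, DESeq2 1.42.0 size factors and its Wald test, total-count scaling, the compared groups alone, a replicate block and each library left out. Per the study's methods, the libraries of a group came from separately transduced and selected lines of the same cell line, so p-values measure the spread between such lines. The values of 1 member are not reported here, although it stays in the counts of members.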

Additional observations from a re-analysis of the deposited data

How the results depend on the processing

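Of 201 called values (a member in a comparison), 156 kept their call under every alternative that tested them and none changed direction. ITGAD, ITGAL, ITGAM and ITGB7 fall below a mean of 20 counts, so their calls could not be lost under that minimum. The 201 include calls of ITGAM, which passed the filter on low counts only through the YAP-TFE3 libraries. The call was lost for 44 in at least 1 fit without a single library, 20 with total-count scaling, 12 in fits of the compared groups alone, 6 without a filter beyond 1 count, 1 with DESeq2's Wald test and 0 with a minimum mean of 20 counts or DESeq2 size factors. The count of called members moved by over 1.5 times only for CAMTA1 against EVsub, from 1 to 3 without the filter and to 4 with these groups alone, and it ranged from 0 to 1 without single libraries (0 without CAMTA1 replicate 1 or 2 or EVsub replicate 1 or 3). The cause was not tested. Among values that passed no test, ITGA2B in YAP-TFE3 against EV turned positive without the filter (0.0050) and ranged from -0.10 (without EV replicate 1) to 0.063 (without YAP-TFE3 replicate 1) without single libraries, and ITGAV ranged from -0.051 (without YAP-TFE3 replicate 1) to 0.22 (without YAP-TFE3 replicate 3). Mean correlations of same-numbered libraries, with group means taken out, lay between -0.024 and 0.20, and no comparison had every pair above 0.1. The highest mean was that of the libraries labelled TAZ4SA and YAP5SA, with pairs at 0.080, 0.13 and 0.37. Whether the replicate numbers mark a shared batch was not tested. With a replicate block, 9 members were called in TAZ-CAMTA1, 28 in the libraries labelled TAZ4SA, 27 in YAP-TFE3, 23 in YAP5SA and 0 in TFE3 against EV, and no call was lost. Depth limits ITGAD, ITGAL, ITGAM, ITGB7 and ITGBL1, which held few counts in most libraries, and folds of 6 called values moved by over 1.5 times. With 3 libraries a group, an exact permutation test of a single value cannot go below p = 0.1.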
